A study of Caenorhabditis elegans with 2 samples.

Results

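Autosomal regions at one-way promoters are stretches of chromatin recovered with tagged NPAX-4 whose summit lies in the promoter of protein-coding genes on 1 strand only. They were taken from the authors' joint list of regions for both replicates, on the ce11 build, with overlapping regions reduced to the strongest. A region belonged here when it was autosomal, when its summit lay over 500 bp from every tRNA, snoRNA, snRNA, miRNA and piRNA gene, and when the summit fell from 1000 bp upstream to 100 bp downstream of protein-coding 5′ ends on only one strand. This rule found 1944 of 11555 regions, at 1914 genes, with each region assigned to the gene whose 5′ end was nearest. Of the 1944 regions, 50 were also in the authors' list filtered by irreproducible discovery rate (IDR), a method meant to keep regions that rank high in both replicates. These 50 are called listed and the other 1894 unlisted. At 4 listed regions, those assigned to rps-28, ddp-1, rpb-11 and C27F2.9, and at 38 unlisted ones, more than 1 gene had its 5′ end in reach. Not every listed region ranked high in both replicate lists.

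Late embryos of C. elegans strain OP493, unc-119(tm4063) III with the transgene wgIs493, were used for chromatin immunoprecipitation and sequencing. The hermaphrodite population was collected 4 h after synchronization by bleaching, and the transgene carried NPAX-4 with GFP and FLAG at its C terminus. GFP was the epitope pulled down, from whole organisms, so cell types were not separated. The 2 samples were biological replicates of that one condition, and the comparisons were therefore between regions, not between conditions.

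NPAX proteins carry the N-terminal part of the paired domain, the DNA-binding domain of the Pax family. Nematode promoters are compact, and a promoter that serves a gene on one side only differs from a divergent one, which lies between genes that point away from each other. Many nematode transcripts receive a spliced leader that replaces their original start, so an annotated 5′ end can lie downstream of the true start of transcription.

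Several listed regions shared a pair of short sequences in the window around the summit, GCAAG and CAC separated by 7 bases of any kind. The sites are shown because they lie in the windows of some of the strongest listed regions, and this pair was chosen after the windows had been read. Capitals mark the 2 fixed parts, 4 flanking bases are shown on each side, each site is written on the strand that carries GCAAG, and coordinates are on ce11 (WBcel235).
C46F11.4, chrIII:3664396-3664418, minus strand: tgttGCAAGcgaaggcCACgccc
swsn-3, chrIII:2768781-2768803, minus strand: atgaGCAAGcgcgcccCACtgga
swsn-3, chrIII:2768842-2768864, plus strand: ttttGCAAGagtgccgCACgtgg
R148.3, chrIII:3175180-3175202, minus strand: atttGCAAGcaagcggCACggtg
rps-28, chrIV:1659248-1659270, minus strand: gaatGCAAGagcgccgCACggtt
plrg-1, chrV:10808103-10808125, plus strand: gtttGCAAGaccgcggCACacat
npp-8, chrIV:1595994-1596016, plus strand: tgttGCAAGtcccccgCACacct
fzo-1, chrII:5836603-5836625, minus strand: tgcaGCAAGcattattCACaaat
cpf-2, chrIII:13268981-13269003, minus strand: tttcGCAAGtgtgcggCACgcga

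Windows that reach 75 bp to either side of strong listed summits show where short words stand relative to each other. Each window is written 5′ to 3′ on the strand of its gene, from the WBcel235 genome. Capitals mark the word CGCAAG, the word GCAAGC or the word GCGCAA on either strand, which are the 3 words with the smallest adjusted p among the 6-base words tested in all windows. The first 8 are the windows of highest signal printed here, and plrg-1 and ddp-1 follow as the next that hold such a word.
K12H4.5, chrIII:8043902-8044052, plus strand: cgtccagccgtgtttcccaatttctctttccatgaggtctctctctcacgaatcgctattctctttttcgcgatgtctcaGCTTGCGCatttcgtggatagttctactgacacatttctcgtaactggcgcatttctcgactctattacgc
F39G3.3, chrV:4731531-4731681, plus strand: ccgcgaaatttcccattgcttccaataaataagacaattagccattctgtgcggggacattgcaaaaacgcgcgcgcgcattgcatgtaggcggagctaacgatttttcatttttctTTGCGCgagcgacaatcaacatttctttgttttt
C46F11.4, chrIII:3664348-3664498, minus strand: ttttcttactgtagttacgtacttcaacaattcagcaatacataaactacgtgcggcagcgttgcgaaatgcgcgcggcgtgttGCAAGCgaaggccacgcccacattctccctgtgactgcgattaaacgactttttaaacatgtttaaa
W01D2.3, chrII:14804662-14804812, minus strand: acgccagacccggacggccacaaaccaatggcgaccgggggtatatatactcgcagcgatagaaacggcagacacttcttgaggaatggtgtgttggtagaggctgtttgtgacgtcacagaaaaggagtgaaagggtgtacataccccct
swsn-3, chrIII:2768774-2768924, minus strand: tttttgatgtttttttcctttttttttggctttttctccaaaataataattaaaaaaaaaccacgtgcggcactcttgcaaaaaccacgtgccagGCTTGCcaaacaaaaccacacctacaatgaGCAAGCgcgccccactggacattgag
R148.3, chrIII:3175097-3175247, plus strand: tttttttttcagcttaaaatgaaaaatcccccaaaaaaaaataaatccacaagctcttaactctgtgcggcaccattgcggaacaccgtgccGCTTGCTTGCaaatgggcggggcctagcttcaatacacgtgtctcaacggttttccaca
F08G2.5, chrII:13834424-13834574, minus strand: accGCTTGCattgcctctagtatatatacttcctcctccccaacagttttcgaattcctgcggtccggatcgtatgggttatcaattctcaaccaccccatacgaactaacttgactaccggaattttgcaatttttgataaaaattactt
lem-2, chrII:14063084-14063234, plus strand: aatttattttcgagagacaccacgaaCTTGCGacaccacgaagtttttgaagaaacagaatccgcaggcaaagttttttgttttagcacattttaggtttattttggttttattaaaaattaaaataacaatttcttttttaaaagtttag
plrg-1, chrV:10808003-10808153, minus strand: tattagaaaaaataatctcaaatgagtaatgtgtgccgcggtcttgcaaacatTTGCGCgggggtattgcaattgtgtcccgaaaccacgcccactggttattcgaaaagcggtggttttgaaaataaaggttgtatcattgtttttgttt
ddp-1, chrIII:1859669-1859819, plus strand: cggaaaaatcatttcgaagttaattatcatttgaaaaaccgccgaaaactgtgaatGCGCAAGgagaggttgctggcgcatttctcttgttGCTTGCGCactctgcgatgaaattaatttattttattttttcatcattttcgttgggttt

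One-way promoters held listed regions at a rate between that of divergent promoters and that of regions outside promoters. The 50 listed of 1944 regions made 2.57% (exact Clopper-Pearson 95% interval 1.91 to 3.38%, which covers counting error only). Over all regions of the joint list the share was 2.95%, and over the autosomal regions away from small RNA genes it was 1.42%. At divergent promoters, with 5′ ends on both strands in reach of the summit, 53 of 455 regions were listed (11.6%, interval 8.85 to 14.96%). The odds of being listed were lower at one-way than at divergent promoters, with an odds ratio of 0.2004 (95% limits 0.131 and 0.305, two-sided Fisher's exact test on regions, p = 2.90e-14). Of the 6758 autosomal regions at no promoter, 27 were listed (0.3995%, interval 0.263 to 0.581%), and the odds at one-way promoters were higher by a ratio of 6.58 (95% limits 4.03 and 10.96, two-sided Fisher's exact test, p = 1.12e-15). These p-values treat regions of 1 joint list as the units and do not measure the spread between replicates.

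**Figure D1:**
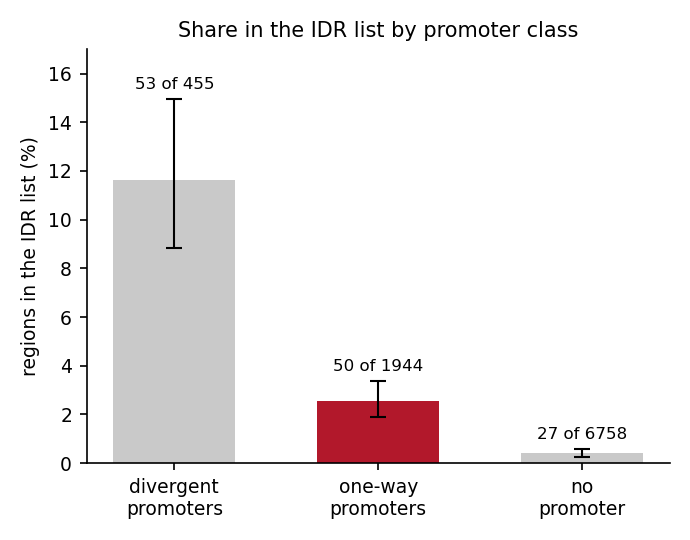
Share of regions in the IDR list (%) for autosomal regions at divergent promoters, at one-way promoters and at no promoter; bars are shares, error bars are exact 95% intervals and the counts stand above each bar. The one-way share of 2.57% lies between 11.6% at divergent promoters and 0.3995% at no promoter, and the intervals do not overlap.

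The listed regions were spread over all 5 autosomes. There were 12 on chromosome I, 12 on II, 14 on III, 6 on IV and 6 on V, of 421, 385, 395, 316 and 427 one-way regions. The share listed ran from 1.41% on V (interval 0.517 to 3.03%) to 3.54% on III (interval 1.95 to 5.88%), and these intervals overlapped. No gene had more than 1 listed region, although 30 genes had 2 or more regions of either kind.

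Signal is the value the authors' peak caller gave each region, with its scale not stated, and since listing depends on it no test is given. Among listed regions it ran from 77.2 to 571 with a median of 98.3, and among unlisted regions from 28.7 to 76.4 with a median of 35.1. The 2 groups do not overlap, as the listing itself rests on signal. Listed regions at divergent promoters had a median of 118.6 and those at no promoter one of 99.9.

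K12H4.5 had the highest signal of the one-way regions. Its region, chrIII:8043810-8044139, had signal 571 in the joint list, 279 in replicate 1 and 290 in replicate 2. It was the third strongest region of the joint list, the second strongest of the replicate 1 list and the third of the replicate 2 list. Its summit was intergenic and 510 bp upstream of the 5′ end. Among one-way regions the next in joint signal was that of F39G3.3, which ranked 71st in the joint list, with signal 182 there, 91.6 in replicate 1 and 87.5 in replicate 2. In both replicates F39G3.3 was far below K12H4.5, at which the replicates were close.

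The listed regions are described here by the known roles of their genes, a grouping made for description with no test. Of genes for protein synthesis, 3 are named. At eif-3.C, which encodes a subunit of translation initiation factor 3, the joint signal was 142, with 79.997 in replicate 1 and 62.0 in replicate 2. At rpl-3, a protein of the large ribosomal subunit, it was 135, with 65.9 and 67.4 in replicates 1 and 2. At rps-28, a protein of the small ribosomal subunit, it was 132, with 70.1 and 58.4. The replicates were close at rpl-3, and replicate 1 was the higher at eif-3.C and rps-28.

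Of genes for chromatin and nuclear structure, 5 are named. At swsn-3, a SWI/SNF chromatin remodelling gene, the joint signal was 161, with 85.3 in replicate 1 and 79.97 in replicate 2, and the summit lay in an intron of the upstream gene cox-6B, 170 bp from the swsn-3 5′ end. At swsn-7, another SWI/SNF gene, it was 83.5, with 53.1 and 27.1. At lem-2, which encodes an inner nuclear membrane protein, it was 136, with 78.5 and 58.1. The replicates were close at swsn-3 and apart at swsn-7, where replicate 2 ranked the region 1273rd. The nucleoporin genes npp-8 and npp-6 had joint signals of 100.1 and 87.8. At npp-8 the replicates gave 43.0 and 45.6, while at npp-6 they gave 62.6 and 16.1, the largest ratio between replicates among the listed regions.

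Of genes for RNA synthesis and processing, 3 are named. The region at plrg-1, a spliceosome component, had 125 in the joint list, 49.1 in replicate 1 and 76.4 in replicate 2. The region at rpb-11, a subunit of RNA polymerase II, had 109 in the joint list, 61.3 in replicate 1 and 49.3 in replicate 2. The region at cpf-2, a factor of messenger RNA 3′ end cleavage, had 82.1 in the joint list, 50.6 in replicate 1 and 28.5 in replicate 2. The order of the replicates thus varied from gene to gene.

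Of genes for mitochondrial proteins, 5 are named. At ddp-1, a factor of protein import into mitochondria, the joint signal was 123, with 61.6 in replicate 1 and 62.8 in replicate 2. The respiratory chain genes nuo-2, cox-5A and cyc-1, of complexes I, IV and III, had joint signals of 100.7, 95.5 and 83.4. Their replicate values were 42.9 and 51.6 at nuo-2, 52.9 and 48.1 at cox-5A, and 39.7 and 50.1 at cyc-1. At fzo-1, the mitofusin of mitochondrial fusion, the joint signal was 85.7, with 54.3 and 30.6. The respiratory chain regions differed little between replicates compared with fzo-1.

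Other strong regions lay at genes of varied roles. K05C4.7, C46F11.4, W01D2.3, R148.3 and F08G2.5, known by sequence names, had joint signals of 172, 166, 165, 151.1 and 137. Of these, W01D2.3 differed most between replicates, with 52.1 in replicate 1 and 112.2 in replicate 2. The region of eel-1, a ubiquitin ligase of the HUWE1 family, had 136, and that of usp-4, a ubiquitin-specific protease, had 122. Their replicate values were 53.6 and 77.2 at eel-1 and 56.4 and 63.7 at usp-4. The regions of sms-3, a sphingomyelin synthase family gene, ccdc-47, and mrck-1, a protein kinase gene, had 115.3, 114 and 107. Their replicate values were 48.3 and 67.3, 66.8 and 53.1, and 60.8 and 43.1. The region of dnj-9, a DnaJ-domain cochaperone gene, had 101.3, with 51.6 and 50.1, and that of mcm-10, a DNA replication gene, had 87.6, with 38.5 and 53.6. Replicate 2 was the higher at W01D2.3, eel-1, usp-4, sms-3 and mcm-10, and replicate 1 at ccdc-47, mrck-1 and dnj-9.

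**Figure D2:**
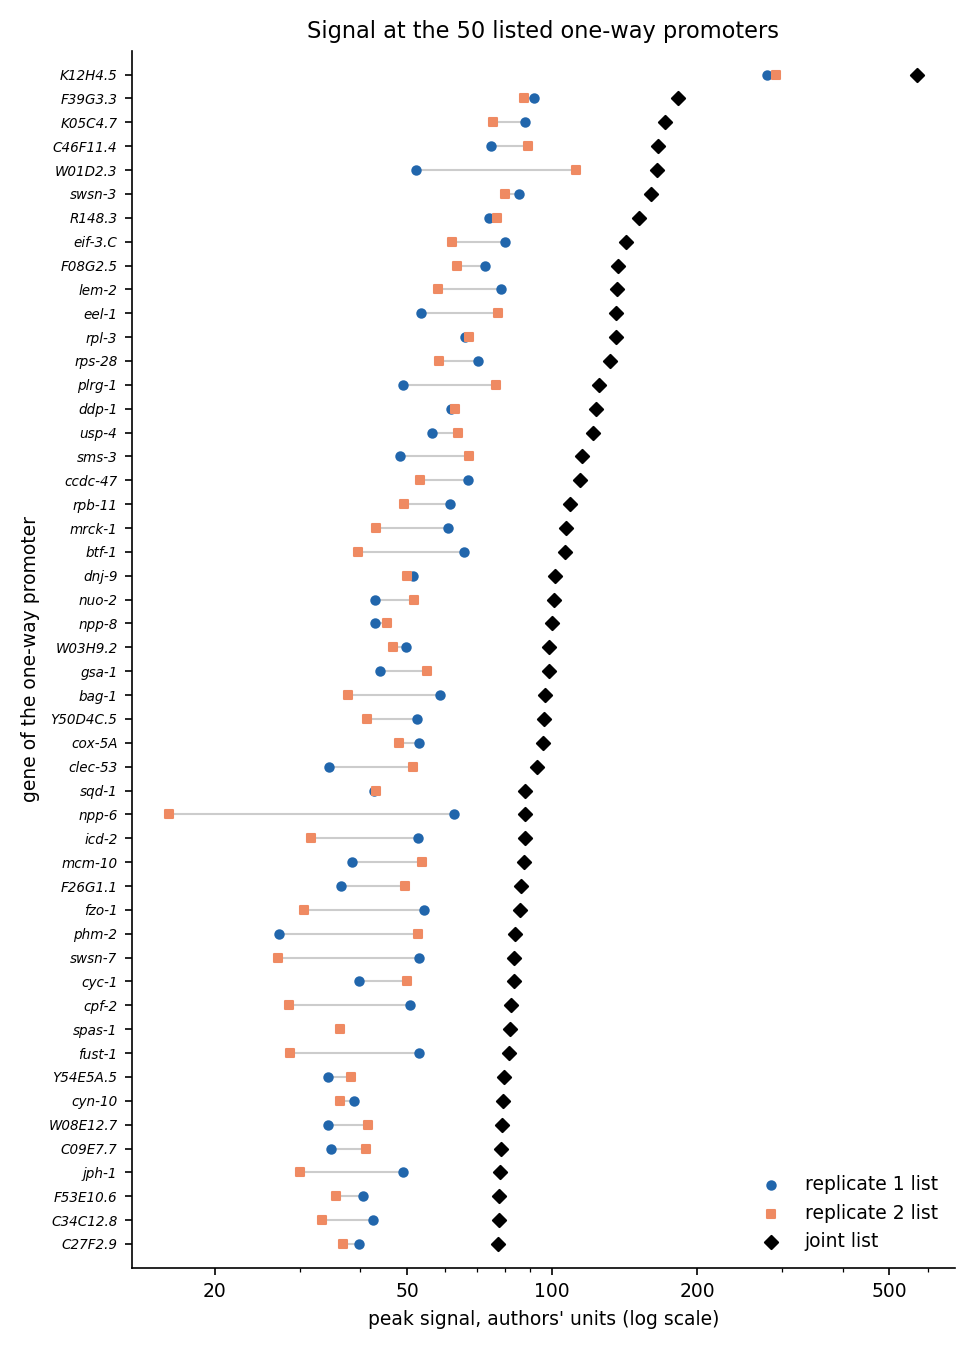
Peak signal in the authors' units (log scale) of the 50 listed one-way promoters, ordered by joint signal; diamonds are the joint list, circles the replicate 1 list and squares the replicate 2 list, and grey lines join the replicates. K12H4.5 stands alone at 571, npp-6 has the largest ratio between replicates, and spas-1 has no replicate 1 value.

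The replicate lists are long and relaxed, so presence in them is a weak requirement. Of the 50 listed regions, 49 overlapped a region of replicate 1 and 50 a region of replicate 2. The exception was spas-1, the spastin gene, with 36.3 in replicate 2. The region of npp-6 was in both lists but ranked only 11276th in that of replicate 2. Replicate 1 gave the higher signal at 27 listed regions and replicate 2 at 22. At unlisted regions replicate 1 was the higher at 608 and replicate 2 at 284. Whether the replicates share one scale is not known, so differences at single genes are descriptions. Each replicate's 354 regions of highest signal were then taken, the number equal to the length of the IDR list. Among them 38 listed regions were found in replicate 1, 35 in replicate 2 and 28 in both. For unlisted regions these counts were 11, 12 and 0. Listing itself draws on the replicates, so the counts are a description. Of the 1894 unlisted regions, 1420 overlapped a region of replicate 1, 1316 a region of replicate 2 and 892 (47.1%) a region of both.

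At the edge of the list, values changed in small steps. The 5 listed regions of lowest signal lay at C09E7.7 with 78.5, jph-1, the junctophilin gene, with 77.998, F53E10.6 with 77.5, C34C12.8 with 77.4 and C27F2.9 with 77.2. The 5 unlisted regions of highest signal lay at mrpl-19, a mitochondrial ribosomal protein gene, with 76.41, edc-4, an mRNA decapping gene, with 76.37, Y17D7C.2 with 75.3, knl-3, a kinetochore gene, with 75.01, and C26B2.7 with 74.7. Replicate values of these unlisted regions ran from 27.1 at edc-4 in replicate 1 to 45.01 at the same gene in replicate 2. Those of the 5 lowest listed regions ran from 30.1 to 49.1, both bounds at jph-1, so the replicate ranges overlapped on either side of the edge. At the bounds of the promoter window itself all regions were unlisted. The 4 summits nearest the upstream bound lay 998 to 1000 bp upstream of efn-2, dpy-1, ugt-15 and ptr-17, with signals from 30.2 to 47.0. The 4 nearest the downstream bound lay 99 to 100 bp inside nhr-136, Y55F3BR.2, aat-7 and F28H1.5, with signals from 29.4 to 44.4.

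Listed summits were concentrated 100 to 500 bp upstream of the 5′ end. The median distance was 267 bp upstream in the listed group (range 44 to 868, quartiles 152 and 406) and 391 bp upstream in the unlisted group (range from 100 bp downstream to 1000 bp upstream, quartiles 158 and 684). From 100 to 500 bp upstream lay 43 of 50 listed summits (86%) and 796 of 1894 unlisted summits (42.0%). No listed summit lay downstream of the 5′ end, against 150 unlisted ones. The bin from 100 to 199 bp upstream alone held 19 listed summits (38% of them), among them those of ddp-1 at 144 bp, ccdc-47 at 153 bp, R148.3 at 159 bp and plrg-1 at 166 bp. The most distant listed summits were those of F08G2.5 at 868 bp, swsn-7 at 661 bp and usp-4 at 645 bp.

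The test of position asked whether the summit lay within 250 bp upstream of the 5′ end. It did in 23 of 50 listed regions (46%, interval 31.8 to 60.7%) and in 522 of 1894 unlisted regions (27.6%, interval 25.6 to 29.6%). The odds ratio was 2.24 (95% limits 1.21 and 4.09, two-sided Fisher's exact test, adjusted p = 0.0125 over 6 comparisons). With the limit at 500 bp, 45 of 50 listed and 996 of 1894 unlisted regions qualified (odds ratio 8.11, Fisher's exact test, adjusted p = 1.66e-07). With it at 150 bp the counts were 12 and 306 and the test was not passed (odds ratio 1.64, Fisher's exact test, adjusted p = 0.343). The call at 250 bp was also lost when the list was rebuilt from replicate 2 alone, with an odds ratio of 1.66 (Fisher's exact test, adjusted p = 0.160), and among intergenic summits, with 1.64 (Fisher's exact test, adjusted p = 0.278). Rebuilding from 1 replicate used the regions of that replicate's own list. Its 354 regions of highest signal took the place of the IDR list, so no IDR call was repeated.

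**Figure D3:**
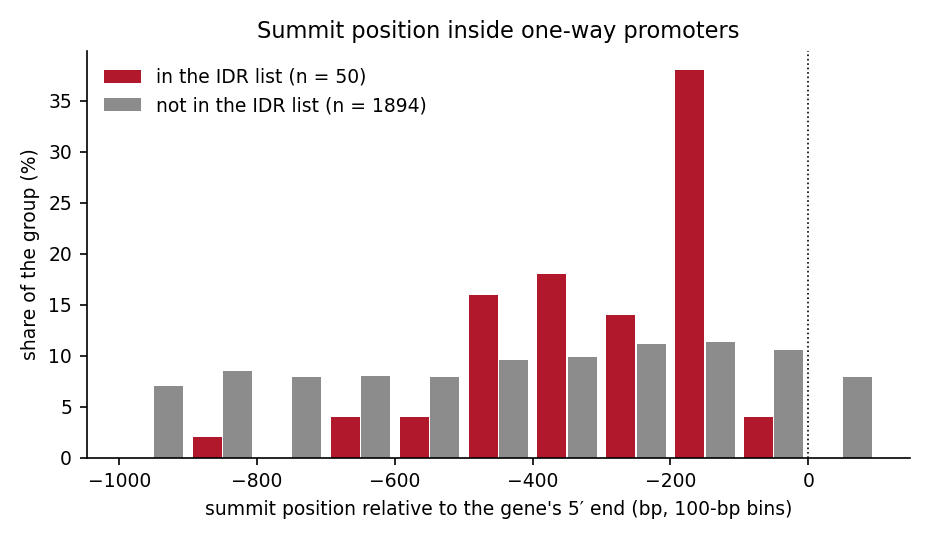
Share of listed (red, n = 50) and unlisted (grey, n = 1894) summits in each 100-bp bin of distance from the gene's 5′ end, with upstream positions negative. Listed summits peak at 38% in the bin from 100 to 199 bp upstream, while unlisted summits stay between 7.07% and 11.4% in every bin.

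Listed summits lay more often outside annotated gene bodies. They were intergenic in 41 of 50 listed regions (82%, interval 68.6 to 91.4%) and in 1188 of 1894 unlisted regions (62.7%, interval 60.5 to 64.9%). The odds ratio was 2.71 (95% limits 1.29 and 6.37, two-sided Fisher's exact test, adjusted p = 0.0125). The 150 unlisted summits downstream of the 5′ end lie in their own gene and cannot be intergenic, and no listed summit lay there. The test had no position covariate, so it partly repeats the difference in summit position. Of the other 9 listed summits, 4 lay in an intron, 1 in a UTR, 4 in the body of a gene that does not code for protein, and 0 in a coding exon. Unlisted summits lay in a coding exon in 251 cases (13.3%). The intronic summits belonged to the promoters of swsn-3, clec-53, a C-type lectin gene, npp-6 and mcm-10, and lay within the upstream genes cox-6B, uba-5, spd-5 and teg-1.

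The layout of the neighbouring genes was compared in 3 ways, and over all one-way regions none passed the test. The upstream space, from the 5′ end to the nearest protein-coding gene, was 1000 bp or more at 25 of 50 listed and 975 of 1894 unlisted regions, or 50% (interval 35.5 to 64.5%) and 51.5% (interval 49.2 to 53.8%). The odds ratio was 0.943 (95% limits 0.515 and 1.72, two-sided Fisher's exact test, adjusted p = 0.887). The upstream neighbour pointed the same way as the gene at 27 listed and 1189 unlisted regions, with an odds ratio of 0.696 (95% limits 0.381 and 1.28, two-sided Fisher's exact test, adjusted p = 0.355). The summit lay in the middle one of 3 equal parts of the chromosome at 17 listed and 566 unlisted regions, with an odds ratio of 1.21 (95% limits 0.626 and 2.25, two-sided Fisher's exact test, adjusted p = 0.641). These intervals leave room for differences in either direction. Upstream space of 1000 bp or more did pass among intergenic summits alone, at 21 of 41 listed and 857 of 1188 unlisted regions (odds ratio 0.406, Fisher's exact test, adjusted p = 0.0220). An intergenic summit far upstream mostly requires a distant upstream gene. Summits lay over 500 bp upstream in 39.5% of unlisted and 10% of listed regions, so this pass cannot be told apart from summit position. The same-strand count did pass with promoters cut at 500 bp upstream (odds ratio 0.489, Fisher's exact test, adjusted p = 0.0163) and with replicate 2 alone (0.491, Fisher's exact test, adjusted p = 0.0340).

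Listed windows were richer in G and C. The GC content of the window reaching 75 bp to either side of the summit averaged 42.4% ± 7.03 (SD over 50 listed regions) and 36.5% ± 7.79 (SD over 1894 unlisted regions). It ran from 28.5% at lem-2 to 56.3% at sqd-1, an RNA-binding protein gene, and swsn-7 in the listed group, and from 13.9 to 72.2% in the unlisted group, so the ranges overlapped. The odds of being listed rose by a factor of 2.31 for each 10 percentage points (interval 1.68 to 3.19, logistic regression over n = 1944 regions, adjusted p = 1.58e-06). The difference was smaller in wider windows. With 150 bp on each side the means were 37.88 and 36.03%, and the odds ratio of 1.57 did not pass (logistic regression over n = 1944 regions, adjusted p = 0.0681).

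**Figure D4:**
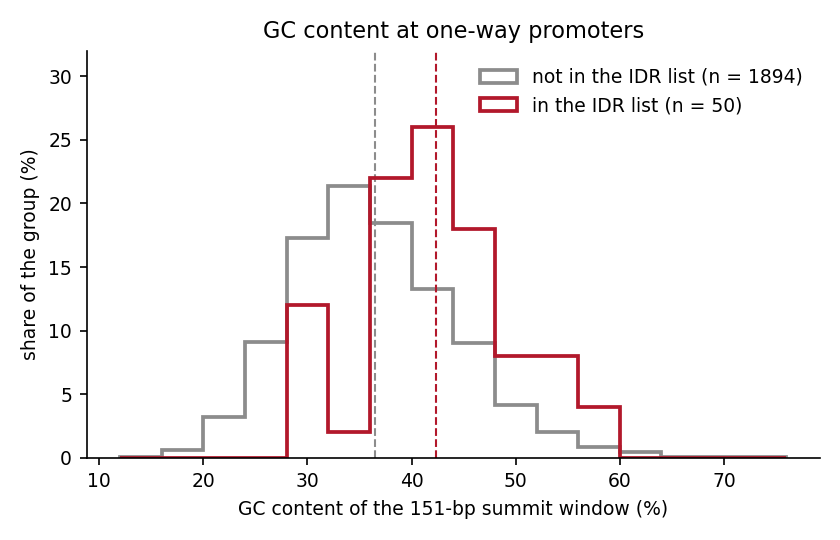
Distribution of GC content (%) in windows reaching 75 bp to either side of the summit, for listed (red, n = 50) and unlisted (grey, n = 1894) one-way promoters, in bins of 4 percentage points, with dashed lines at the means. The means are 42.4% and 36.5%, and the distributions overlap.

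Within the unlisted group the same features can be followed along the signal, as a description with no test. In the 474 regions of lowest signal, 28.7 to 31.3, mean GC content was 35.6%, and in the 473 of highest signal, 41.4 to 76.4, it was 37.8%. Proximal summits made 26.6%, 25.1%, 26.0% and 32.6% of the 4 signal classes of that size, from the lowest to the highest, so only the highest class stood above the others. One of the 3 words of smallest adjusted p, marked in capitals in the printed windows, stood in 7.81%, 9.28%, 10.1% and 15.4% of windows in the same order, and in 26 of 50 listed windows (52%). These 3 words were picked on the listed windows, so the last value is a description.

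Each 6-base word, counted on either strand, was tested in a logistic regression of its own with GC content and summit position as covariates. Of 1956 words tested over 1510 regions, 13 (0.665%) were more frequent in listed windows at an adjusted p under 0.05 and 0 (0%) were less frequent. The 434 regions in position bins with no listed summit could not enter that fit. CGCAAG stood in 14 of 50 listed windows (28%, interval 16.2 to 42.5%) and 74 of 1894 unlisted windows (3.91%, interval 3.08 to 4.88%). Its odds ratio was 6.83 (interval 3.34 to 13.96, logistic regression over n = 1510 regions, adjusted p = 0.00284). GCAAGC stood in 14 listed and 73 unlisted windows, with an odds ratio of 6.72 (interval 3.23 to 13.97, n = 1510 regions, adjusted p = 0.00284). GCGCAA stood in 16 listed and 118 unlisted windows, with an odds ratio of 5.50 (interval 2.83 to 10.7, n = 1510 regions, adjusted p = 0.00284). These 3 words overlap each other in longer strings such as the one in capitals near the K12H4.5 summit.

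The other words by adjusted p were close relatives or other CG-containing strings. TGCGCA stood in 9 listed and 41 unlisted windows, TTGCAA in 15 and 134, CGCACA in 16 and 106, GCCGCA in 14 and 84, and CAAGCG in 10 and 47. AATGCG stood in 15 listed and 133 unlisted windows and ATGCGC in 12 and 78. The word CGCGCA, the word CCGCAC and the word CGCGAA also passed. Odds ratios of the 13 words ran from 4.06 for CGCGCA to 8.95 for TGCGCA. Any of the 13 stood in 41 of 50 listed windows (82%) and in 650 of 1894 unlisted windows (34.3%), the first of which is set by how the words were found. CCGCAC stood mostly on the strand opposite to the gene, in 13 listed windows against 1 on the gene's own strand. CGCAAG stood on the opposite strand in 11 listed windows and on the gene's strand in 4. Several calls were lost with a single replicate. With replicate 2 alone the odds ratios were 3.89 for GCAAGC, 2.98 for CAAGCG, 4.47 for GCGCAA, 3.82 for AATGCG and 4.28 for ATGCGC, and none of these 5 passed at an adjusted p under 0.05. With replicate 1 alone they were 4.41 for GCAAGC and 4.39 for CAAGCG, which did not pass either. CGCAAG passed with each replicate alone, at 7.66 with replicate 2 and 5.97 with replicate 1. The number of words that passed depended on the settings: it was 2 among intergenic summits and 45 with no covariate.

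Words with known factors or promoter roles did not pass. TCACGC, part of a site that paired domains bind, stood in 4 of 50 listed windows (8%, interval 2.22 to 19.2%) and in 52 of 1894 unlisted windows (2.75%, interval 2.06 to 3.58%), with an odds ratio of 2.63 (interval 0.861 to 8.05, logistic regression over n = 1510 regions, adjusted p = 0.503). The interval includes both no difference and a large one. TATAAA, the TATA box core, stood in 6 listed and 310 unlisted windows, and TTTCAG, the nematode 3′ splice site, in 8 and 544. GAGAGA stood in 3 and 206 windows, GATAAG, the GATA factor site, in 2 and 91, CACGTG, the E-box of bHLH factors, in 2 and 48, and AAAAAA in 24 and 1156. CCGCCC, the core of GC boxes, stood in 9 listed (18%) and 97 unlisted windows (5.12%), with an odds ratio of 2.32 (interval 1.00 to 5.36, logistic regression over n = 1510 regions, adjusted p = 0.398). The adjusted p of these 8 words ran from 0.310 for GAGAGA to 0.986 for AAAAAA in these fits over n = 1510 regions.

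The paired sequence printed above, GCAAG and CAC with 7 bases between them, stood in 9 of 50 listed windows (18%, interval 8.58 to 31.4%). It stood in 14 of 1894 unlisted windows (0.739%, interval 0.405 to 1.24%) and in 0.589% of the 11545 nuclear windows of the joint list. It was chosen after these windows had been read, so its counts here carry no test. With 6 or 8 bases between the parts, 0 of 50 listed windows held the pair, with an exact upper bound of 7.11%. With 9 bases 3 of 50 held it (6%, interval 1.25 to 16.5%). The 10 sites in listed windows had their centres within 57 bp of the summit, with a median of 13 bp. Only the summit windows were searched, so larger distances were mostly excluded and the limit of 57 bp is no result. Along the gene's strand, centres lay from -36 to 57 bp of the summit at listed sites. At the sites in the 14 unlisted windows they lay from -61 to 65 bp. Whether listed sites lay closer to the summit was not tested. Of the 10 listed sites, 4 were on the strand of the gene and 6 on the other strand. The base before CAC was G in 7 of the 9 listed windows and in 6 of the 14 unlisted ones.

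The 9 listed regions with a site lay at K05C4.7, C46F11.4, swsn-3 with 2 sites, R148.3, rps-28, plrg-1, npp-8, fzo-1 and cpf-2, with joint signals from 82.1 to 172. Among unlisted regions the strongest with a site was that of set-25, a histone H3 lysine methyltransferase gene, with signal 73.9. The 14 unlisted regions with a site had a median rank of 1698 in the joint list, against 5958 for all unlisted one-way regions. They also included vps-39, a vesicle tethering gene, and rpl-35, a ribosomal protein gene, with signals of 65.3 and 62.3. The autosomes hold 1324 copies of the pair, of which 67 lay in windows of the joint list. Windows of autosomal IDR-list regions of every class held 21, against the 10 sites in the listed one-way windows.

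Divergent promoters held the pair in 9 of 53 listed windows (16.98%, interval 8.07 to 29.8%) and 9 of 402 unlisted windows (2.24%, interval 1.03 to 4.21%). Listed autosomal regions at no promoter held it in 0 of 27 windows, with an exact upper bound of 12.8%, and listed X regions away from small RNA genes in 0 of 17, with one of 19.5%. No difference between these classes was tested. The 7-base word GCGCAAG stood in 11 of 50 listed one-way windows (22%, interval 11.5 to 35.96%). It stood in 29 of 1894 unlisted ones (1.53%, interval 1.03 to 2.19%) and in 1.22% of all nuclear windows. The word joins CGCAAG and GCGCAA, which were picked on these listed windows, so its counts here carry no test. Its 11 listed members included K12H4.5, eif-3.C, ddp-1, rpb-11, mrck-1, dnj-9, nuo-2, phm-2, spas-1 and C27F2.9. None of the 11 carried the spaced pair, and whether the 2 sequences avoid each other was not tested. One or the other stood in 20 of 50 listed windows (40%), a share that rests on sequences chosen from these windows. In unlisted one-way windows it was 41 of 1894 (2.16%) and in all nuclear windows 1.78%. At divergent promoters it was 16 of 53 listed (30.2%) and 20 of 402 unlisted windows (4.98%). At divergent promoters GCGCAAG stood in 7 of 53 listed and 11 of 402 unlisted windows.

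**Figure D5:**
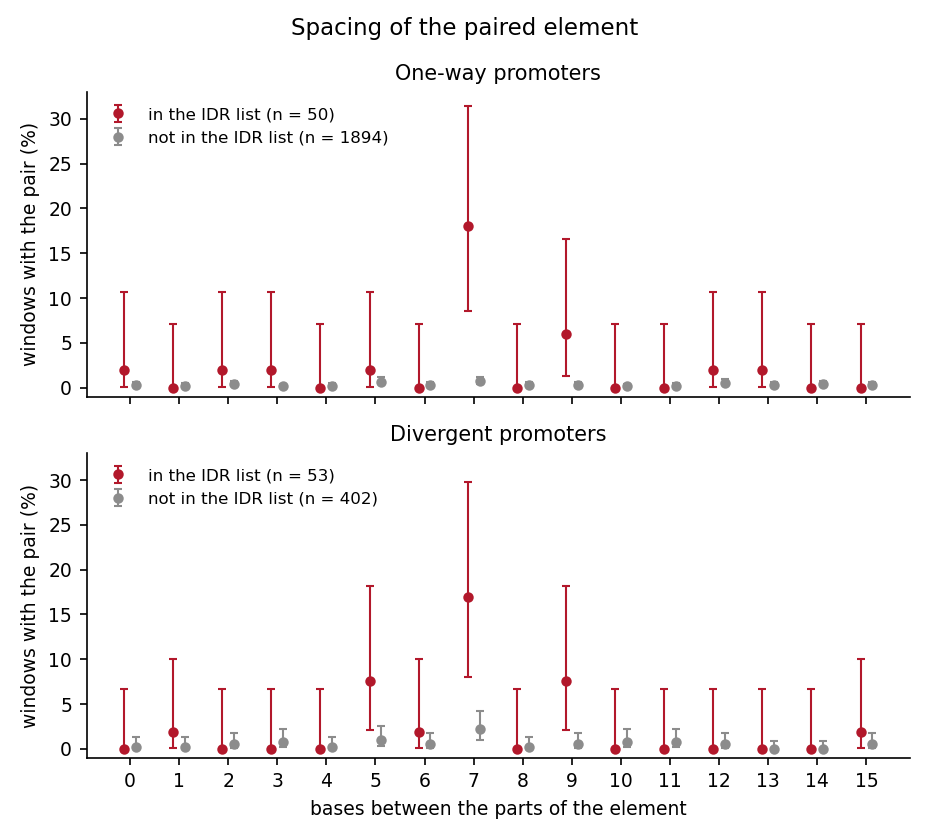
Share of summit windows (%) that hold the 2 parts of the paired element on either strand, by the number of bases between them, for listed (red) and unlisted (grey) regions at one-way promoters (top) and divergent promoters (bottom); error bars are exact 95% intervals. At 7 bases the listed share is 18% at one-way and 16.98% at divergent promoters.

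The genes of one-way promoters were also read against 35 gene lists, by counts alone. Of the 1914 genes with a one-way region, 50 (2.61%) had a listed one. In the mitochondrial respiration list, 3 of 7 genes did, nuo-2, cox-5A and cyc-1. In the cytosolic ribosomal protein list it was 2 of 14, rpl-3 and rps-28, and in the chromatin list 2 of 12, swsn-3 and swsn-7. A single gene was listed among 9 translation factors (eif-3.C), 8 splicing and RNA processing genes (cpf-2), 16 RNA polymerase and general transcription factor genes (rpb-11), 9 cell cycle and replication genes (mcm-10) and 10 heat shock and chaperone genes (dnj-9). These 8 lists took in 12 of the 50 listed genes and the other 38 were in no list. No test was made on these counts, so whether any list differs from the share over all genes was not tested.

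Of the 35 lists, 27 had no listed gene, and with 2.61% of all genes listed a count of 0 is no result about a list this short. The count was 0 of 65 chemoreceptor genes, 0 of 21 nuclear hormone receptor genes, 0 of 14 cuticle collagen genes, 0 of 14 neuropeptide and insulin-like peptide genes and 0 of 11 ion channel genes. Among genes used in all cells it was 0 of 5 aminoacyl-tRNA synthetase genes, 0 of 4 proteasome genes, 0 of 4 histone genes, 0 of 1 vacuolar ATPase gene and 0 of 10 cytoskeleton and motor genes. It was also 0 of 8 homeobox genes, 0 of 17 vesicle traffic genes and 0 of 7 genes of the Wnt pathway. Neuronal, body wall muscle, epidermal, intestinal and pharyngeal lists had 4, 5, 3, 2 and 1 genes with a region and 0 listed. Of the 10 Pax and paired-domain genes none had a one-way region. Median signal of the members was 33.2 for chemoreceptors and 33.5 for collagens, 51.6 for ribosomal proteins and 46.4 for translation factors, against 35.3 over all genes.

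Repeated sequence touched few listed regions. The summit window had 1 match in the genome at 43 of 50 listed regions (86%) and at 1382 of 1894 unlisted regions (73.0%). It had 10 or more matches at 2 listed regions, eel-1 with 168 and C09E7.7 with 121, and at 288 unlisted regions (15.2%). Reads from closely similar copies cannot be assigned with certainty, so the signals of eel-1 and C09E7.7 may be uncertain. Matches were counted without regard to identity or length, and read mapping was not examined. The windows of gsa-1, npp-6, W03H9.2, cyn-10 and sms-3 had 6, 4, 3, 2 and 2 matches, and the same limit can apply to them. Without all windows of 10 or more matches, the odds ratios were 2.06 for proximal summits and 2.81 for intergenic summits (Fisher's exact tests, adjusted p = 0.0338 and 0.0116).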

How the data were processed

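Chromatin immunoprecipitation was sequenced in 2 biological replicates of 1 condition. The authors deposited lists of regions per replicate, a joint list of both replicates (12454 regions on ce11) and a list of 354 regions thresholded on the IDR, per the deposited file descriptions. Each region has a signal value in the deposited lists, with scale not stated, and a summit offset. The aligner, the peak caller and its IDR cut-off were not given in the sources used here. Read counts are absent from the lists, so depth is unknown. The control library was not analysed here.

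From these lists overlapping regions were reduced to the strongest, and summits were placed on WBcel235 with the Ensembl release 115 annotation, which is the ce11 assembly. A region was listed when the same coordinates were in the IDR list. Comparisons of listed with unlisted regions used Fisher's exact test, two-sided, or logistic regression, with Benjamini-Hochberg adjustment over 6 comparisons. All 6-base words found in at least 2% of windows were tested by logistic regression with GC content and 100-bp position bin as covariates and adjusted over all words. Genomic matches of windows were counted with blastn 2.17.0 at an E-value of 1e-08. Intervals are exact 95% Clopper-Pearson intervals for shares and cover counting error only. Regions are not replicates, and p-values do not measure the spread between the 2 samples. The tests were tried on simulated data. For the word test the listed label was drawn without regard to GC content or position. The case of listed windows that differ in both was therefore not checked. Computation used scipy 1.17.1, numpy 2.4.6 and pandas 2.3.3 under Python 3.11.15, with figures from matplotlib 3.10.9.

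The regions, gene lists and tests were chosen with earlier results of these data known. Genes named are the 20 listed regions of highest signal, up to 4 listed genes of each list, the 5 lowest listed and 5 highest unlisted regions, and the 4 summits nearest each bound, and further genes were named after their values were seen. Words named are the 10 of smallest adjusted p, 8 fixed words and the others that passed. Windows are printed in order of signal, and those on chromosome I are not reported here.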

Additional observations from a re-analysis of the deposited data

How the results depend on the processing

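The IDR shares against divergent promoters (odds ratio 0.164 to 0.310 over 9 alternatives) and against regions at no promoter (4.11 to 11.2) kept their direction. They passed the test in every alternative tried, but some alternatives could hardly move them. Keeping only the higher-signal part of the listed or of the unlisted regions in each class nearly fixes these odds ratios. Counting any overlap with an IDR region gave the same counts as the main setting. With a single replicate, its regions of highest signal replaced the IDR list. Intergenic summits passed in 10 of 11 alternatives. The exception was the 25 listed regions of higher signal (3.12, Fisher's exact test, adjusted p = 0.0705). GC content passed in 13 of 14, with 1.57 with 150 bp on each side of the summit as the exception. Proximal summits passed in 10 of 14 and did not pass with promoters cut at 500 bp (1.64), at 150 bp (1.64), among intergenic summits (1.64) or with replicate 2 alone. Leaving out each replicate in turn gave 1.66 to 2.99 for proximal summits, 0.901 to 1.20 for upstream space, 0.491 to 0.808 for same-strand neighbours, 0.637 to 0.804 for the middle part of the chromosome and 7 to 14 words. Upstream space turned direction without passing in the 25 listed regions of higher signal (1.41) and with a limit of 2000 bp (1.10). It passed among intergenic summits (0.406), where it cannot be told apart from summit position. The middle part turned without passing in the 25 of higher signal (0.587) and with promoters cut at 500 bp (0.973). Same-strand neighbours passed with promoters cut at 500 bp (0.489).

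The number of words that passed was 26 with promoters cut at 500 bp, 5 with the 25 of higher signal, 5 against unlisted regions of higher signal, 6 with 50 bp on each side of the summit, 24 with GC content alone, 45 with no covariate and 2 among intergenic summits. Without K12H4.5 it was 10.

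Of 16 alternatives that gave a value, GCAAGC did not pass in 5 and CAAGCG did not pass in 7. Among single words, those whose odds ratio changed side of 1 did not pass the test in any such setting. For AAAAAA it was 0.977 without reducing overlapping regions, 0.670 with the 25 of higher signal, 0.943 against unlisted regions of higher signal, 0.589 with no covariate and 0.975 without windows of 10 or more genomic matches. For TATAAA it was 0.409 with the 25 of higher signal, 0.949 with 150 bp on each side and 0.697 with no covariate. It was 1.08 for CTGAAA and 1.09 for GAGAGA with 150 bp on each side, 1.61 for CTTATC with 50 bp on each side and 0.565 for CACGTG among intergenic summits. The word CTGAAA is TTTCAG on its other strand, the word CTTATC is GATAAG and the word GCGTGA is TCACGC. Leaving out each replicate in turn gave 0.904 to 1.07 for AAAAAA, 0.914 to 2.201 for CACGTG, 0.362 to 1.02 for CTGAAA, 0.411 to 1.27 for CTTATC, 0.830 to 1.39 for GCGTGA and 0.749 to 0.939 for TATAAA.

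Settings with intergenic summits alone, without repeated windows and without K12H4.5 were chosen after seeing the data. The causes of these shifts were not tested. No paired analysis was possible because both samples belong to 1 condition. With 50 listed regions, differences smaller than the printed intervals could not be seen.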
